A study of Homo sapiens with 24 samples.

Results

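Prostaglandin genes are the 9 genes PLA2G4A, PTGS1, PTGS2, PTGES, PTGES2, PTGER2, PTGER4, SLCO2A1 and HPGD, out of 27274 gene names on the array. Picked by gene name for known roles in making, sensing and removing prostaglandin E2, they were chosen with earlier results of these data known. They were represented by 10 probes, 1 for each gene and 2 for PTGS1. The cells were HCT-116, a human colorectal cancer line. They were 1 stable clone that carries a Tet repressor and a dominant negative Tcf4 (DN-Tcf4) inducible by doxycycline. By western blot, the study reported minimal DN-Tcf4 with doxycycline alone and high levels with doxycycline and butyrate together. DoxyNaB and Doxy therefore differ in DN-Tcf4 as well as in butyrate. All 4 groups were this clone. They were untreated cells (Ctl), cells given 5 mM sodium butyrate (NaB), cells given 4 μg/ml doxycycline (Doxy) and cells given both agents (DoxyNaB). Per the methods doxycycline came first, and the 17.5 hr are those of the later cotreatment with or without butyrate. Each of 6 experiments, which the methods call biological replicates, gave 1 one-colour Agilent array per group, 24 in all. Being 1 clone of 1 line, the cells show the response of that clone.

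Prostaglandin synthesis starts when phospholipases free arachidonic acid from membranes. The cyclooxygenases PTGS1 and PTGS2 turn it into an unstable intermediate, and terminal synthases convert that into prostaglandin E2 and its relatives. Prostaglandin E2 acts on neighbouring cells through G protein-coupled receptors such as PTGER2 and PTGER4, which raise cyclic AMP. It is removed by uptake through the transporter SLCO2A1 and oxidation by HPGD. In the colon the pathway is known for high PTGS2 and low HPGD in many tumours. Butyrate is a fermentation product of dietary fibre and inhibits histone deacetylases, and DN-Tcf4 blocks transcription driven by β-catenin and Tcf.

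A level is a probe's log2 signal minus that array's 75th percentile over spots that are not controls, so a level of 0 is as bright as that percentile, and levels of 2 probes are not compared with each other. A change is a difference of such levels. A gene was called changed where the fold was over 2 and the Benjamini-Hochberg adjusted p from limma was under 0.01. The adjustment was over all 18962 tested probes, which stood for 15142 genes. Arrays of experiments 2 to 4, which share a scan, were brighter, with 78.4% to 88.1% of spots well above background, against 52.7% to 62.6% in experiments 1, 5 and 6. On 2 arrays the negative controls were high. Their mean net signal was 161 for NaB in experiment 3 and 248.9 for DoxyNaB in experiment 2, against 48.4 to 115 elsewhere. In experiments 2 to 4 this signal was 63.1 to 79.6 without butyrate and 69.1 to 248.9 with butyrate. In experiments 1, 5 and 6 it was 48.4 to 58.0 and 48.8 to 64.3. Background was thus not even between the groups, and its part in the changes of dim genes was not tested. Doxycycline lowered AXIN2, a target of β-catenin and Tcf, by 0.58 ± 0.15 on the log2 scale in Doxy/Ctl (SD over 6 experiments, limma adjusted p = 0.00289) and by 2.53 ± 0.34 in DoxyNaB/NaB (adjusted p = 2.63e-11). TCF7L2, the gene of Tcf4, was 2.96 ± 0.88 higher in DoxyNaB/NaB (adjusted p = 3.64e-05), and in Doxy/Ctl its change was -0.17 ± 0.99 (adjusted p = 0.92). Whether its probe reads the native gene, the introduced DN-Tcf4 or both was not worked out.

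The start regions of 4 members are shown because these genes answered butyrate in opposite directions or lie side by side. PTGS2 and PLA2G4A are neighbours on chromosome 1, transcribed away from each other, with starts 148.5 kb apart in RefSeq (GRCh38.p14). PTGER4 was the member with the smallest adjusted p in both butyrate comparisons, and PTGES2 was the member that fell. Each line gives the 250 bases before the start, read 5′ to 3′ on the strand of the gene, from chr1:186680424-186680673 (minus) for PTGS2, chr1:186828699-186828948 (plus) for PLA2G4A, chr5:40679665-40679914 (plus) for PTGER4 and chr9:128128441-128128690 (minus) for PTGES2, the most upstream of 3 starts. Capitals mark matches on either strand to the TATA box letters TATAAA, the CCAAT box letters CCAAT, the GC box letters GGGCGG, the CRE core letters TGACG, or a Tcf/Lef core, spelled CTTTGAA or CTTTGAT or CTTTGTA or CTTTGTT.
PTGS2: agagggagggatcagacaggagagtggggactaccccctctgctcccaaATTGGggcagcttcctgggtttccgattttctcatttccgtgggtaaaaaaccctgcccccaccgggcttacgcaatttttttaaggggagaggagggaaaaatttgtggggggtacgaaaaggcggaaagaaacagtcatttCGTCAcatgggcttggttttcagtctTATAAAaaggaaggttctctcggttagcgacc
PLA2G4A: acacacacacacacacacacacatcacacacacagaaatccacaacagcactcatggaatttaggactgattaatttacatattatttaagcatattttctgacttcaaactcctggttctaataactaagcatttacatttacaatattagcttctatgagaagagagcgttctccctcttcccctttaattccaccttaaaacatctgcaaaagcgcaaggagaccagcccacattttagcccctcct
PTGER4: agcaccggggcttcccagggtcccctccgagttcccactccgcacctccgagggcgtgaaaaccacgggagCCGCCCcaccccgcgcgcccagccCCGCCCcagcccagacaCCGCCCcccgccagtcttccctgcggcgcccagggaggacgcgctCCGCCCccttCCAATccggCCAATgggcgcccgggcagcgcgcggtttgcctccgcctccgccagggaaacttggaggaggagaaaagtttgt
PTGES2: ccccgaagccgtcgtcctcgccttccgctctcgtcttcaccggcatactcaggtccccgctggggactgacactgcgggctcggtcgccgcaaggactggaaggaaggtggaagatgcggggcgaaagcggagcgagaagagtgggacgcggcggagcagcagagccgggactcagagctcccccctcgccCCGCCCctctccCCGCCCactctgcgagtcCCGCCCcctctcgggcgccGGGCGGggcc

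The PTGS2 region held 1 match each to the TATA box, the CRE core and the CCAAT box, with first bases at -32, -58 and -201 from the start. Of 35116 start regions of the same length in RefSeq, 10.7% held TATAAA, 21.2% the CRE core and 32.0% CCAAT. The PLA2G4A region held 0 matches, and 38.8% of its bases were G or C, against a median of 58.0% over all start regions. PTGER4 and PTGES2 were GC-rich, at 72.8% and 72.4%, with 4 matches each to GGGCGG, which was found in 42.6% of all start regions. PTGER2, at 74.0%, held 2 GC boxes and 1 CRE core. A Tcf/Lef core was found in 11.96% of all start regions and, among the 8 members with a listed start, in that of PTGES, at -250. A match describes letters in this window only.

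As scaled above, butyrate raised 5 prostaglandin genes and lowered 1. PLA2G4A, PTGS1, PTGS2, PTGER2 and PTGER4 were called higher both in NaB/Ctl and in DoxyNaB/Doxy, by 2.42- to 6.29-fold, and PTGES2 was called lower in both, by 2.25- and 2.28-fold. PTGES did not pass the test, and HPGD and SLCO2A1 were too dim to be tested. The calls depend on the processing. With another background correction (normexp), quantile normalization and scaling to the median, 2, 4 and 5 of 7 tested members were called in NaB/Ctl. In DoxyNaB/Doxy the counts were 5, 6 and 5. Among all 15142 tested genes, 21.0% were called higher and 11.5% lower in NaB/Ctl, and 18.7% higher and 12.5% lower in DoxyNaB/Doxy. In NaB/Ctl 11936 genes had an unadjusted p under 0.05 by limma. How many of all genes had groups that did not overlap was not counted, so lack of overlap in a member is only a description. A gene was tested where 1 or more groups had a probe well above background throughout their 6 arrays. PTGS2, PTGER2 and the brighter of the 2 PTGS1 probes therefore entered only through a butyrate group. For that reason the count over tested members is not given as support. For 5 members, PLA2G4A, PTGS1, PTGES, PTGES2 and PTGER4, a probe was well above background on each of the 24 arrays. Among these, 4 were called in each butyrate comparison, where 27.4% and 26.8% of the genes measured on all arrays were called. The members were chosen with earlier results of these data known, so this contrast is a description and gives no support. In a culture, fewer cells expressing a gene and less RNA per cell cannot be told apart.

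**Figure D1:**
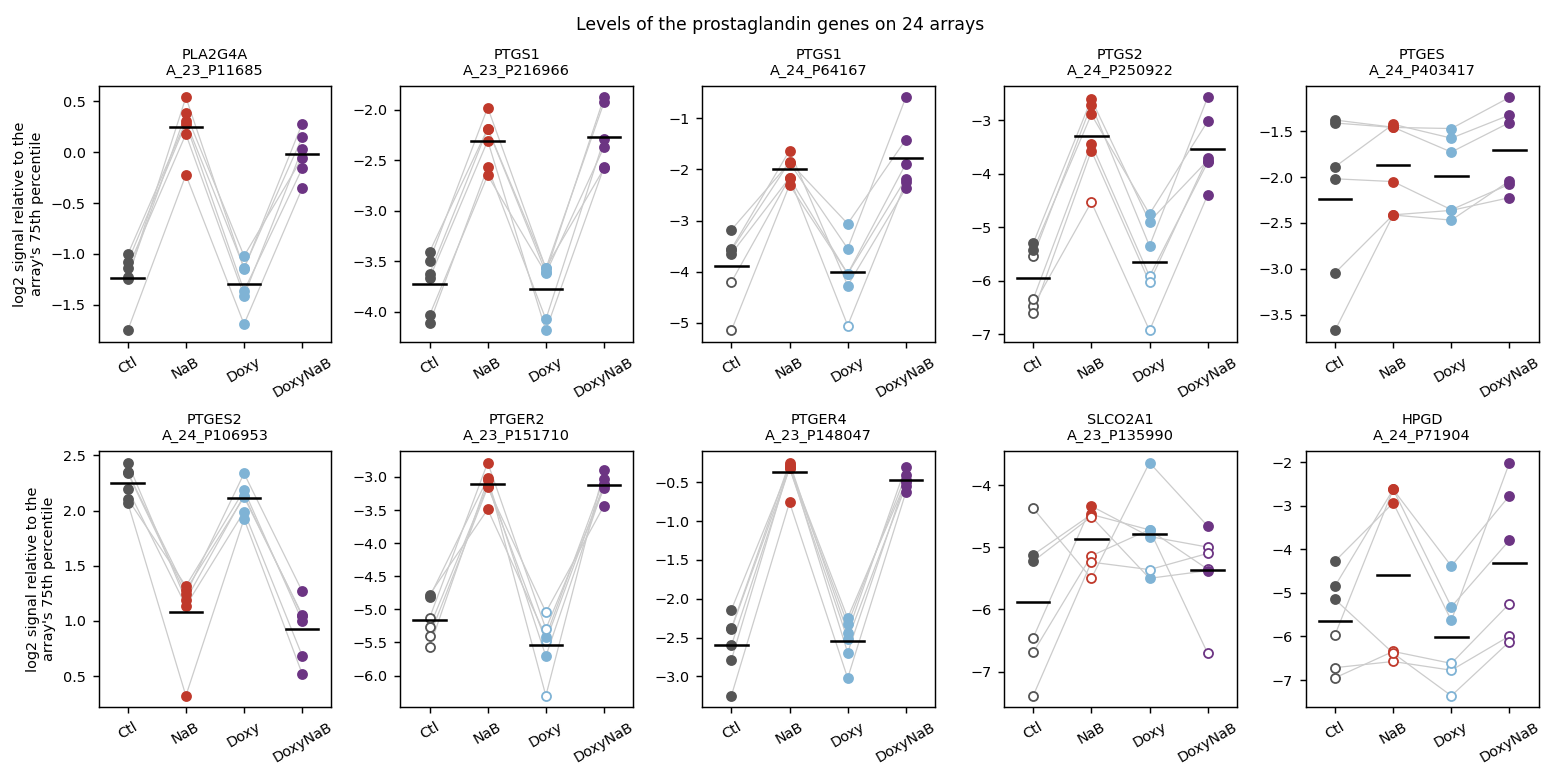
Levels of the 10 probes of the 9 prostaglandin genes (y axis, log2 signal relative to the array's 75th percentile) in the 4 groups (x axis), with 1 point per array, grey lines joining the arrays of 1 experiment, black bars at the mean of 6 arrays, and open points where the signal was not well above background. The butyrate groups lie apart from the groups without butyrate for PLA2G4A, PTGS1, PTGS2, PTGES2, PTGER2 and PTGER4, and overlap with them for PTGES, SLCO2A1 and HPGD. The share of all genes that lie apart in this way was not counted.

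PLA2G4A encodes cytosolic phospholipase A2, which frees arachidonic acid. Its probe, printed in 10 spots (chr1:185224275-185224334 on NCBI36, the build of the files), had levels from -1.75 to -1.01 in Ctl (median -1.18) and from -0.22 to 0.54 in NaB (median 0.29). Under doxycycline they ran from -1.69 to -1.02 in Doxy (median -1.25) and from -0.35 to 0.28 in DoxyNaB (median -0.01). All 12 butyrate arrays were brighter than all 12 others. The change was 1.49 ± 0.19 in NaB/Ctl (SD, n = 6 experiments), a 2.80-fold increase, with an adjusted p of 6.28e-12 from limma. In DoxyNaB/Doxy it was 1.28 ± 0.18, or 2.42-fold (limma adjusted p = 4.65e-11). Within the scan of experiments 2 to 4 and that of experiments 5 and 6 it was 1.33 and 1.70 in NaB/Ctl, and 1.31 and 1.20 in DoxyNaB/Doxy.

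The cyclooxygenase PTGS2, the inducible form, was higher with butyrate. Its probe was printed in 10 spots (chr1:184908092-184908151) and was dim: it was well above background on 2 Ctl, 5 NaB, 3 Doxy and 6 DoxyNaB arrays. Levels were -6.59 to -5.30 in Ctl (median -5.94), -4.53 to -2.61 in NaB (median -3.16), -6.93 to -4.75 in Doxy (median -5.63) and -4.40 to -2.57 in DoxyNaB (median -3.73). Each butyrate group lay above its control without overlap, but most of the control arrays gave no signal well above background, and the folds rest on those dim values. Every level was below the 75th percentile of its array. The change was 2.65 ± 0.39 in NaB/Ctl, or 6.29-fold (95% confidence interval 4.86 to 8.15, limma adjusted p = 2.02e-10), and 2.10 ± 0.59 in DoxyNaB/Doxy, or 4.30-fold (3.32 to 5.57, limma adjusted p = 5.05e-09). It was higher in 6 of 6 experiments in both. In experiments 2 to 4 and in experiments 5 and 6, the 2 scans with all groups, the change was 2.69 and 2.97 in NaB/Ctl and 1.88 and 2.23 in DoxyNaB/Doxy. With another background correction (normexp), PTGS2 was not called: the changes were 0.59 (limma adjusted p = 0.0991) and 0.94 (limma adjusted p = 0.0100).

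PTGS1, the constitutive cyclooxygenase, was read by 2 probes whose near ends lie 2425 bases apart on chromosome 9. The probe at chr9:124194873-124194932 was well above background on all 24 arrays, with levels from -4.12 to -3.41 in Ctl, -2.65 to -1.98 in NaB, -4.19 to -3.56 in Doxy and -2.58 to -1.88 in DoxyNaB. The probe at chr9:124197357-124197416 had levels from -5.15 to -3.18 (median -3.62) in Ctl, -2.30 to -1.63 (median -2.01) in NaB, -5.05 to -3.06 (median -4.04) in Doxy and -2.37 to -0.59 (median -2.03) in DoxyNaB. The second probe was well above background on 4 Ctl, 6 NaB, 5 Doxy and 6 DoxyNaB arrays, so it was tested only through the butyrate groups. Its differences of 2.85 in NaB/Ctl (experiment 6) and 2.81 in DoxyNaB/Doxy (experiment 5) were taken against control arrays not well above background. By either probe, no butyrate array overlapped with its control group. The second probe, brighter on average and therefore the one that stands for the gene, changed by 1.89 ± 0.54 in NaB/Ctl (3.71-fold, limma adjusted p = 3.60e-06) and by 2.22 ± 0.54 in DoxyNaB/Doxy (4.67-fold, limma adjusted p = 4.88e-07). The first probe changed by 1.41 ± 0.12 (2.66-fold, limma adjusted p = 5.75e-09) and rose 2.84-fold in DoxyNaB/Doxy (limma adjusted p = 2.47e-09). Within the 2 scans the second probe changed by 1.66 and 2.17 in NaB/Ctl and by 2.17 and 2.48 in DoxyNaB/Doxy. The first probe, the one measured on every array, was called in neither comparison under any of the 3 other scalings: its changes were 0.53 and 0.94 with normexp, 0.40 and 0.82 with quantile normalization and 0.66 and 0.94 with scaling to the median. The second probe lost its call in NaB/Ctl with normexp (0.75, limma adjusted p = 0.0289), with quantile normalization, where its fold was under 2 (0.95), and in experiments 5 and 6 alone (2.17, limma adjusted p = 0.0142).

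The terminal synthases for prostaglandin E2 differed from the genes upstream of them. PTGES is the inducible, membrane-bound enzyme (chr9:131541331-131541390). Its levels ran from -3.67 to -1.38 in Ctl (median -1.95), -2.41 to -1.43 in NaB (median -1.75), -2.47 to -1.47 in Doxy (median -2.04) and -2.22 to -1.13 in DoxyNaB (median -1.72), and all 4 groups overlapped. The changes were 0.37 ± 0.53 in NaB/Ctl, higher in 3 of 6 experiments (limma adjusted p = 0.0564), and 0.29 ± 0.10 in DoxyNaB/Doxy, higher in 6 of 6 (limma adjusted p = 0.124). Their 95% confidence intervals, 0.01 to 0.72 and -0.06 to 0.65, did not reach a 2-fold change. The 2 lowest Ctl levels, -3.67 and -3.05, were those of experiments 5 and 6; the change in NaB/Ctl was 0.95 in these 2 experiments and 0.11 in experiments 2 to 4, and in DoxyNaB/Doxy it was 0.28 and 0.30. The sign of the PTGES change in NaB/Ctl was negative with normexp (-0.12), quantile normalization (-0.28) and scaling to the median (-0.38).

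PTGES2, a second prostaglandin E synthase (chr9:129925828-129925887), was the only one of the 7 tested members called lower. Its levels were 2.07 to 2.43 in Ctl (median 2.27) and 0.32 to 1.32 in NaB (median 1.22), and 1.92 to 2.34 in Doxy (median 2.13) and 0.52 to 1.27 in DoxyNaB (median 1.02). Every butyrate array was below every array without butyrate. The change was -1.17 ± 0.32 in NaB/Ctl, which left 44.5% of the Ctl level (limma adjusted p = 3.49e-09), and -1.19 ± 0.14 in DoxyNaB/Doxy, which left 43.9% (limma adjusted p = 2.81e-09). Within experiments 2 to 4 and 5 and 6 it was -1.11 and -1.20 in DoxyNaB/Doxy, and -1.15 in experiments 5 and 6 in NaB/Ctl. This fall is close to the fold threshold: in NaB/Ctl it was -0.98 with normexp and -0.98 in experiments 2 to 4 alone, both under 2-fold, with limma adjusted p of 1.72e-06 and 5.60e-05.

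Both tested prostaglandin E2 receptors rose. PTGER4 (chr5:40729320-40729379) was measured on all arrays, with levels of -3.25 to -2.14 in Ctl (median -2.50), -0.76 to -0.25 in NaB (median -0.31), -3.02 to -2.25 in Doxy (median -2.48) and -0.63 to -0.30 in DoxyNaB (median -0.48). Every butyrate array was above every array without butyrate. The change was 2.22 ± 0.26 in NaB/Ctl (4.67-fold, limma adjusted p = 2.79e-13) and 2.07 ± 0.23 in DoxyNaB/Doxy (4.19-fold, limma adjusted p = 6.79e-13). It was called in both under every setting tried, and within the 2 scans the changes were 2.02 and 2.40 in NaB/Ctl and 1.94 and 2.10 in DoxyNaB/Doxy.

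PTGER2 (chr14:51864180-51864239) was dimmer and was well above background on 2 Ctl, 6 NaB, 2 Doxy and 5 DoxyNaB arrays. Its folds, too, rest on dim control arrays. Its levels were -5.57 to -4.78 in Ctl (median -5.20), -3.49 to -2.78 in NaB (median -3.09), -6.31 to -5.04 in Doxy (median -5.45) and -3.43 to -2.90 in DoxyNaB (median -3.12). The groups with and without butyrate did not overlap. The change was 2.06 ± 0.45 in NaB/Ctl (4.16-fold, limma adjusted p = 1.16e-08) and 2.41 ± 0.59 in DoxyNaB/Doxy (5.33-fold, limma adjusted p = 1.33e-09). Within the 2 scans they were 1.87 and 2.30 in NaB/Ctl, and 2.79 and 1.87 in DoxyNaB/Doxy. In NaB/Ctl the call was lost with normexp (0.56, limma adjusted p = 0.0482) and with quantile normalization (0.60, limma adjusted p = 0.105). Leaving out the 2 arrays with high negative controls ended no call of a member. That fit kept other butyrate arrays of experiments 2 and 4, with negative controls of 111 to 115.

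**Figure D2:**
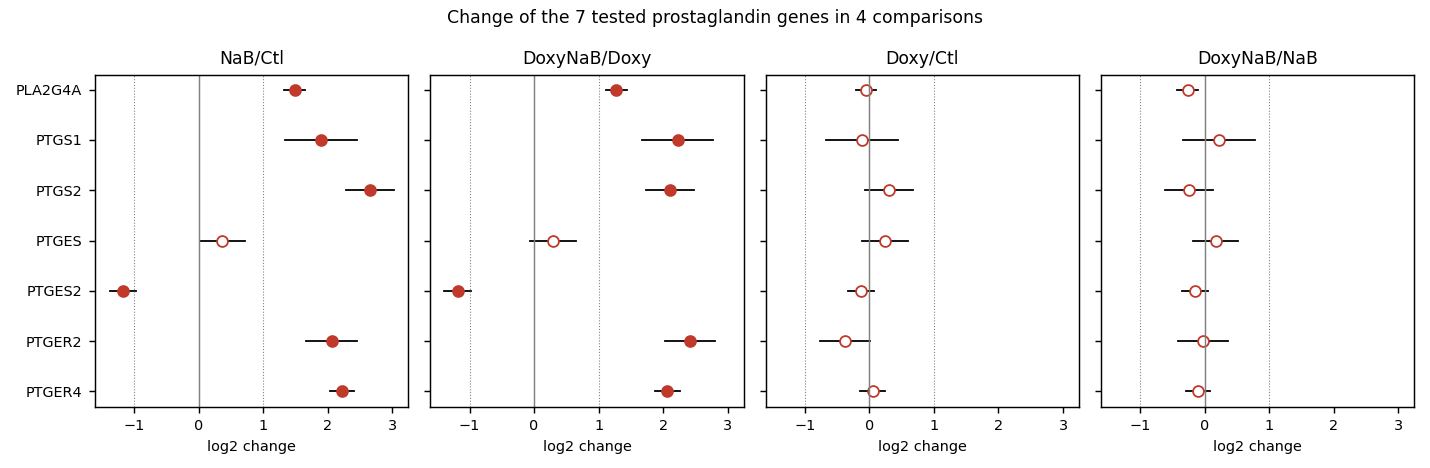
Change of the 7 tested prostaglandin genes (x axis, log2 change; y axis, genes) in 4 comparisons, as points with 95% confidence intervals from limma (6 experiments), filled where called; dotted lines mark a 2-fold change. In both butyrate comparisons 5 genes lie above the upper line and PTGES2 below the lower one, and with doxycycline as the variable no gene was called.

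The removal genes gave no tested result. HPGD, the dehydrogenase that inactivates prostaglandin E2 (chr4:175648261-175648320), was well above background on 3 arrays of each group, which were those of experiments 2, 3 and 4 in NaB, Doxy and DoxyNaB and of experiments 2, 4 and 6 in Ctl. In experiments 2, 3 and 4 its levels were -4.27, -5.96 and -4.84 in Ctl, -2.94, -2.63 and -2.63 in NaB, -5.63, -5.32 and -4.39 in Doxy and -2.01, -3.79 and -2.77 in DoxyNaB. In these experiments every butyrate array was above every array without butyrate. Mean differences were 2.30 ± 1.00 in NaB/Ctl and 2.25 ± 1.18 in DoxyNaB/Doxy (SD, n = 3). They are the experiments where HPGD was well above background with butyrate, so this separation is not given as support. In experiments 1, 5 and 6 no butyrate array was well above background, and the differences were -0.16 ± 0.96 and 1.13 ± 0.31. Without the filter on dim probes, the change over all 6 experiments was 1.07 in NaB/Ctl (limma adjusted p = 0.0546) and 1.69 in DoxyNaB/Doxy (limma adjusted p = 0.00576), the latter a call. Experiments 2 to 4 are also those of the brighter scan and hold the 2 arrays with high negative controls. Those 2 arrays gave the largest HPGD differences, 3.34 in NaB/Ctl (experiment 3) and 3.62 in DoxyNaB/Doxy (experiment 2). The part of brightness and background in the HPGD differences was not tested.

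SLCO2A1, the prostaglandin uptake transporter (chr3:135134471-135134530), was well above background on 2 Ctl, 2 NaB, 5 Doxy and 2 DoxyNaB arrays. Its levels were -7.39 to -4.37 in Ctl, -5.50 to -4.34 in NaB, -5.50 to -3.64 in Doxy and -6.70 to -4.66 in DoxyNaB, with overlap between all groups. Without the filter the changes were 1.01 in NaB/Ctl (limma adjusted p = 0.0360) and -0.57 in DoxyNaB/Doxy (limma adjusted p = 0.236). The change in Doxy/Ctl was 1.08 (limma adjusted p = 0.503). NaB/Ctl minus DoxyNaB/Doxy, the interaction, was 1.58 (limma adjusted p = 0.435). None of these was called, and they rest on dim arrays.

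In NaB/Ctl the order of the increases was PTGS2 (95% confidence interval 2.28 to 3.03 on the log2 scale), PTGER4 (2.03 to 2.41), PTGER2 (1.67 to 2.45), PTGS1 (1.34 to 2.45) and PLA2G4A (1.32 to 1.65). The intervals of neighbours in this order overlapped. The order depends on the processing: with normexp the changes were 1.46 for PTGER4, 1.12 for PLA2G4A, 0.75 for PTGS1, 0.59 for PTGS2 and 0.56 for PTGER2, and with quantile normalization those of PTGS2 and PLA2G4A were 1.30 and 1.32. PTGS2 and PTGER2 were well above background on 2 of 6 Ctl arrays each and the PTGS1 probe used here on 4. The places of these 3 genes in the order are uncertain. Over the 24 arrays, after each probe was centred on the mean of its experiment, the levels of the 6 called members followed each other with r between 0.894 and 0.986 for the 5 that rose and between -0.969 and -0.900 against PTGES2. These correlations share the arrays and the butyrate contrast, and they are a description.

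Doxycycline was compared with no doxycycline to ask whether blocking Tcf4 moved the pathway. Without butyrate TCF7L2 did not pass the test and AXIN2 fell by 0.58 against 2.53 with butyrate, so Doxy/Ctl is the weaker test of that question. In Doxy/Ctl 0 of 7 tested members were called by limma, where 0.0925% of all genes were, and 0 had an unadjusted p under 0.05 by limma or by the methods' t-test. The 95% confidence intervals of the 7 changes ran from -0.77 (PTGER2) to 0.68 (PTGS2), all short of 2-fold. In DoxyNaB/NaB 0 of 7 were called, against 0.396% of all genes; at an unadjusted p under 0.05, limma gave PLA2G4A and the methods' t-test gave PLA2G4A and PTGES. PLA2G4A was lower in 6 of 6 experiments, by -0.26 ± 0.14 (limma adjusted p = 0.0633). The intervals in DoxyNaB/NaB ran from -0.62 (PTGS2) to 0.77 (PTGS1).

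The difference between the 2 butyrate responses, NaB/Ctl minus DoxyNaB/Doxy, was tested as an interaction with no fold threshold. It was called for 0 of 7 members by limma, against 1.35% of all genes. At an unadjusted p under 0.05, limma gave PTGS2 and the methods' t-test gave PTGER4. For PTGS2 the response without doxycycline was 0.55 larger (95% confidence interval 0.02 to 1.08, limma adjusted p = 0.388), and it was larger in 5 of 6 experiments. Without experiment 3 the PTGS2 difference was 0.35, with quantile normalization it was 0.24, and with normexp its sign turned (-0.35). In experiments 2 to 4 and in experiments 5 and 6 it was 0.80 and 0.74 (limma adjusted p = 0.997 and 0.202). Without experiment 1 it was 0.78 (limma adjusted p = 0.212). It was called under no setting. For PTGER4 the difference was 0.15 (-0.12 to 0.43, limma adjusted p = 0.711). The intervals of PTGS1 (-1.12 to 0.45) and PTGS2 reached a 2-fold difference, and those of the other 5 did not.

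**Figure D3:**
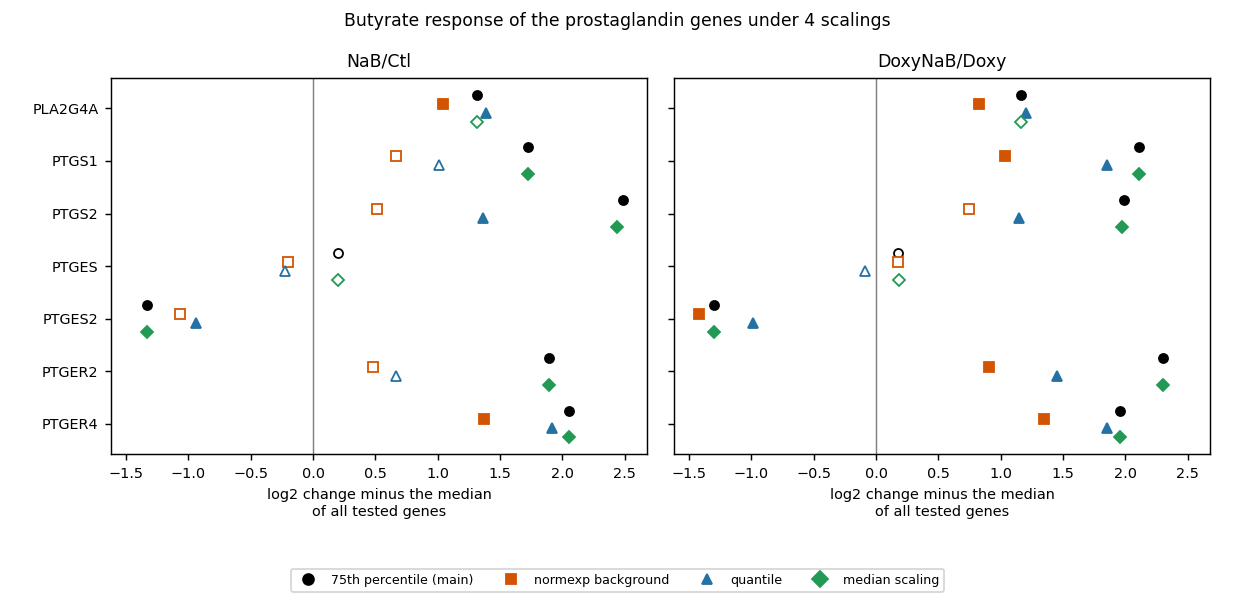
Butyrate response of the 7 tested members (x axis, log2 change minus the median change of all tested genes; y axis, genes) under 4 ways of scaling the arrays, filled where the gene was called on the unshifted change. All 4 scalings place PLA2G4A, PTGS1, PTGS2, PTGER2 and PTGER4 above 0 and PTGES2 below 0 in both comparisons, and PTGES changes sides. Scaling by the 75th percentile and by the median shift each array by a constant, apart from the floor on low signals, so after the median change is taken off they give nearly the same values and are not separate checks.

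The scaling of the arrays matters here because butyrate moved many genes. The median change of all tested genes in NaB/Ctl was 0.17 as scaled above, 0.08 with normexp, -0.06 with quantile normalization and -0.58 with scaling to the median. The share of called genes that were higher was 64.6% in NaB/Ctl, and 53.8%, 45.9% and 21.6% with these alternatives; in DoxyNaB/Doxy it was 60.0%, and 58.7%, 45.2% and 25.8%. Relative to that median, where the first and last scalings nearly coincide by construction, PLA2G4A was higher by 1.32, 1.04, 1.39 and 1.32 under the 4 scalings in NaB/Ctl, PTGER4 by 2.06, 1.37, 1.92 and 2.06, and PTGS2 by 2.49, 0.51, 1.36 and 2.44. PTGES2 was at -1.33, -1.07, -0.94 and -1.33. With scaling to the median PLA2G4A was not called in either comparison, its unshifted changes being 0.74 and 0.72.

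Other genes of the pathway were compared in the same fit, from a list set by role with earlier results of these data known. Of 13 other genes of arachidonate release, 8 were tested and 3 were called higher in NaB/Ctl and in DoxyNaB/Doxy, with a median change of 0.25 and 0.33 beside 0.17 and 0.11 for all genes, of which 21.0% and 18.7% were called higher. The secreted phospholipases PLA2G2A (2.27 ± 0.68, limma adjusted p = 8.67e-07) and PLA2G10 (1.81 ± 0.18, limma adjusted p = 5.94e-12) rose in NaB/Ctl, as did DAGLB, a diacylglycerol lipase named here after its value was seen (1.01). PLA2G2A was well above background on 3 Ctl, 6 NaB, 3 Doxy and 5 DoxyNaB arrays, so it was tested only through the NaB group. MGLL, the monoacylglycerol lipase, was called lower in DoxyNaB/Doxy (-1.05 ± 0.46, limma adjusted p = 0.000127), and its change in NaB/Ctl was -0.69.

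Of 9 other terminal synthases, 5 were tested, and 2 were called higher and 1 lower in NaB/Ctl, where 21.0% of all genes were called higher and 11.5% lower. AKR1C3, which makes prostaglandin F2α and also acts on steroids, was 4.90 ± 0.50 higher (limma adjusted p = 4.21e-14) and PTGDS, a prostaglandin D2 synthase, 4.08 ± 0.18 higher (limma adjusted p = 2.80e-15). AKR1C3 was well above background on 4 Ctl and 5 Doxy arrays and on all butyrate arrays, so it was tested only through the butyrate groups, and PTGDS was so on all 24. AKR1C3 has closely similar relatives, whose RNA its probe could also bind. PTGES3, a co-chaperone that also carries prostaglandin E synthase activity, was called lower in NaB/Ctl (-1.08 ± 0.28, limma adjusted p = 8.03e-08), and its change in DoxyNaB/Doxy was -0.93. Of 7 other prostanoid receptors 1 was tested, TBXA2R, and it was not called, at -0.10 in NaB/Ctl.

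Of 3 genes of export and later breakdown, PTGR1, a reductase acting after HPGD, was called higher in NaB/Ctl (1.21 ± 0.20, limma adjusted p = 1.01e-10) and stood at 0.95 in DoxyNaB/Doxy. ABCC4, a prostaglandin exporter, was called lower in DoxyNaB/Doxy (-1.25 ± 0.48, limma adjusted p = 9.60e-07) and stood at -0.77 in NaB/Ctl. PTGR2 was called in neither, at -0.29 and -0.44.

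The list for the lipoxygenase branch, which draws on the same arachidonic acid, holds lipoxygenases, leukotriene synthesis genes and leukotriene receptors. Of its 13 genes 6 were tested. In NaB/Ctl 5 were called higher, with a median change of 1.34, and in DoxyNaB/Doxy 2, where 21.0% and 18.7% of all genes were called higher. They were ALOX15B (2.18 ± 1.84, limma adjusted p = 0.000757), ALOX5 (1.67 ± 0.32, limma adjusted p = 6.89e-10), LTB4R (limma adjusted p = 1.65e-11), LTB4R2 (1.17) and LTA4H (1.01). ALOX15B was well above background on 2 Ctl, 5 NaB, 4 Doxy and 6 DoxyNaB arrays, so it was tested only through DoxyNaB. In DoxyNaB/Doxy ALOX5 (1.59) and LTB4R (1.52) were called. The count of 5 in NaB/Ctl was 1 with normexp, 3 with quantile normalization and 1 with scaling to the median.

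Of 14 genes known to regulate PTGS2 or HPGD, 13 were tested. In NaB/Ctl 3 were called higher and 2 lower, and in DoxyNaB/Doxy 3 higher and 4 lower. The shares over all genes were 21.0% higher and 11.5% lower in NaB/Ctl and 18.7% and 12.5% in DoxyNaB/Doxy. ZFP36, a protein that binds AU-rich messenger RNAs and speeds their decay, rose by 3.05 ± 0.26 in NaB/Ctl (limma adjusted p = 3.03e-14), and NFKB1, a subunit of NF-κB, stood at -3.11 ± 0.24 (limma adjusted p = 1.14e-13). SNAI2, a transcriptional repressor, was 3.92 ± 0.48 higher in NaB/Ctl (limma adjusted p = 5.12e-11) and 2.56 ± 0.78 in DoxyNaB/Doxy (limma adjusted p = 1.79e-08). It was well above background on 2 Ctl, 6 NaB, 3 Doxy and 5 DoxyNaB arrays, so it was tested only through the NaB group. ZFP36L1, a relative of ZFP36 named after its value was seen, was the only one of the 13 called in the interaction (1.52): its change was -0.87 in NaB/Ctl and -2.39 in DoxyNaB/Doxy. That count was 2 with quantile normalization and 0 with scaling to the median. ZFP36L1 (-1.38) and SNAI2 (-1.36) were also called lower in DoxyNaB/NaB, and no other gene of the 6 lists was called in that comparison, in Doxy/Ctl or in the interaction. With scaling to the median 9 regulators were called in NaB/Ctl in place of 5, and 10 in DoxyNaB/Doxy in place of 7.

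**Figure D4:**
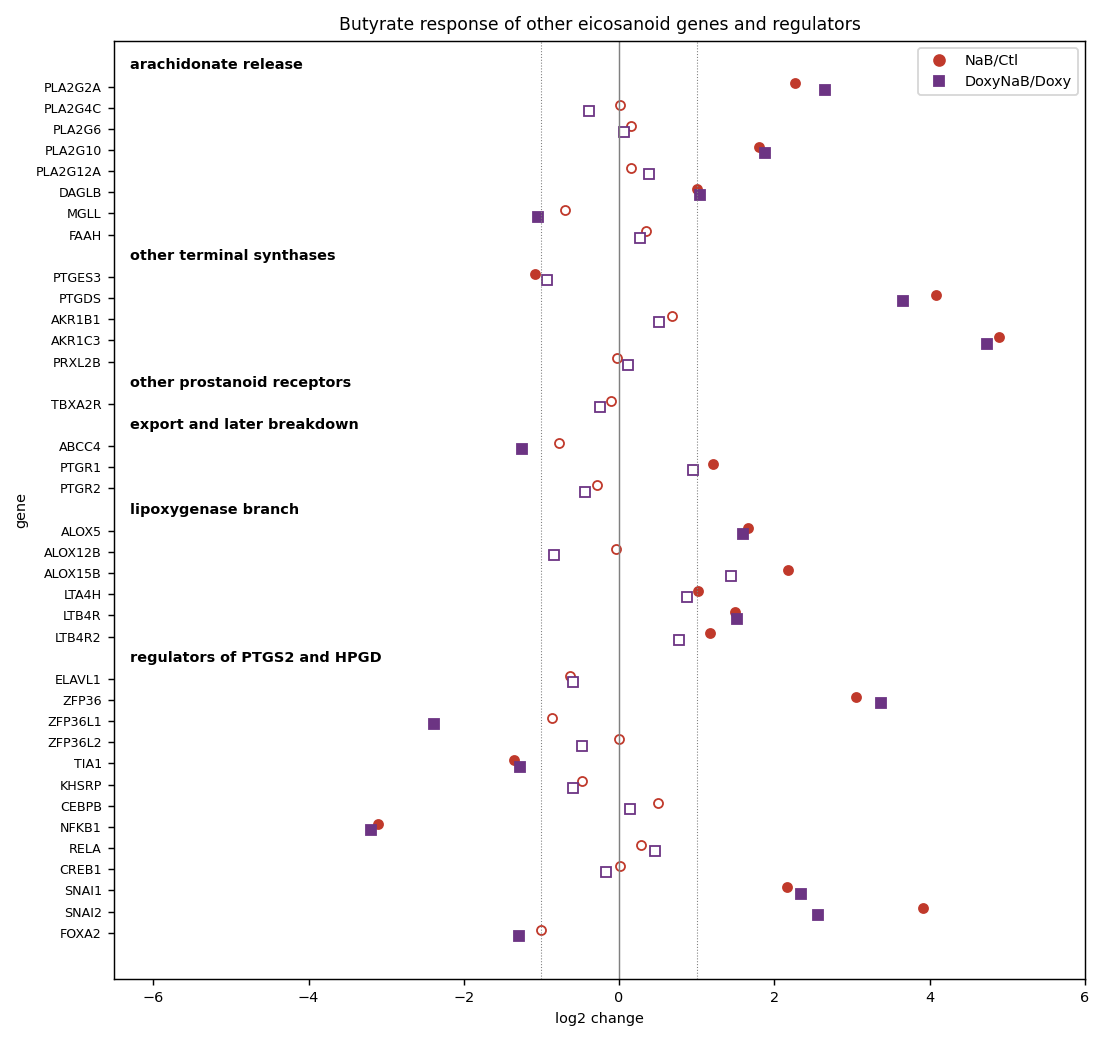
Butyrate response of the tested genes of 6 lists around the prostaglandin pathway (x axis, log2 change; y axis, genes by list) in NaB/Ctl (circles) and DoxyNaB/Doxy (squares), filled where called; dotted lines mark a 2-fold change. The largest increases are those of AKR1C3 and PTGDS and the largest decreases those of NFKB1.

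Markers of the labelled cell type were present. Of 9 epithelial markers 5 had a probe well above background on all 24 arrays: CDH1, KRT8, KRT18, KRT19 and CDX2. EPCAM was called lower in NaB/Ctl (-1.45). VIL1, CEACAM5 and LGALS4 did not pass the filter. Of 7 markers of immune, endothelial and stromal cells 1, ACTA2, was well above background on all arrays, PTPRC, PECAM1, COL1A2 and DCN did not pass the filter, and CD14 (1.35) and COL1A1 (1.09) were called higher in NaB/Ctl. The summed signal of these 7, as a multiple of the 75th percentile, was 0.639 to 1.19 in Ctl, 0.956 to 2.01 in NaB, 0.631 to 1.15 in Doxy and 1.04 to 2.50 in DoxyNaB, and that of the epithelial markers 210.0 to 300.1, 274.8 to 501.9, 216.3 to 297.3 and 253.9 to 372.3. Both sums moved with butyrate, and their part in the results was not tested.

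For each called member, the 3 other genes whose levels over the 24 arrays were most like it were named by Pearson's r after centring on the experiment. They were HIST1H4H, BCL6 and CSRP2 for PLA2G4A (r of 0.993 to 0.996), WFDC1, KCNK7 and C6orf154 for PTGS1 (0.971 to 0.978), CCNB3, TNNC2 and CYP2F1 for PTGS2 (0.984 to 0.985), TOMM40, STMN3 and CDCA3 for PTGES2 (0.990 to 0.992), FAM115C, HSPA2 and BPGM for PTGER2 (0.981 to 0.988), and ZSWIM6, SSBP2 and RNF19A for PTGER4 (0.996 each). The likeness is of arrays that share the butyrate contrast. The log2 changes of these 18 genes in NaB/Ctl ran from -2.22 (CDCA3) to 5.00 (SSBP2).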

How the data were processed

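RNA of 4 groups in 6 experiments was measured on 24 one-colour Agilent arrays. The deposited files hold the signal intensity of 44495 spots per array. Per the file headers, Agilent Feature Extraction 9.5.3.1 subtracted background and corrected spatial trends array by array; the arrays were not scaled to each other. The methods name GeneSpring and a paired test. Control and outlier spots (359 to 795 per array) were left out, spots of 1 probe were averaged on the log2 scale, and the 75th percentile of each array, 380.2 to 1323 in signal units, was subtracted.

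Fits were made in R 4.3.3 with limma 3.58.1 (lmFit, eBayes) on all 24 arrays, with 4 groups and the experiment as a block. Tested were 18962 of 34127 probes, those well above background (the software's own test, multiplier 13) on all 6 arrays of at least 1 group; 14514 were so on all 24. A gene was represented by its tested probe of highest mean level. The methods' t-test was run as an alternative. Confidence intervals are at 95%. Tables and plots were made in Python 3.11.15 (pandas 2.3.3 and numpy 2.4.6 for tables, matplotlib 3.10.9 for plots). The number of arrays limits the precision, and spots near background have little.

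The members and gene lists were chosen with earlier results of these data known. Named genes are all members, up to 3 called genes per list with the largest change, TCF7L2 and AXIN2, and the 3 genes most like each called member. Arrays were paired by experiment, following the paired test of the methods and the shared slides of experiments 2 to 6; 35 of 36 pairs of arrays within an experiment had residuals correlated over 0.1 (r from -0.22 to 0.85). Experiments 2 to 4 and 5 and 6 form 2 scans with all groups. Experiment 1 lies in 2 others, which separate its arrays with butyrate from those without. Coordinates of probes are on NCBI36; start regions are from RefSeq (GRCh38.p14). Simulated data served to test the fit. Alternatives were normexp (offset 50), scaling to the median (signals floored at 5), quantile normalization, the filter dropped or required on all 24 arrays, no block, the slide as block, only the groups compared, subsets of experiments (with the same probes), an adjusted p of 0.05, a fold of 1.5, the mean over probes, and leaving out each experiment.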

Additional observations from a re-analysis of the deposited data

Results flagged for a closer look

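Of 40 sets of 6 levels (10 probes in 4 groups), 4 had 1 array apart from the other 5 by Dixon's gap over range; about 1 in 20 does so by chance. The PLA2G4A level of the Ctl array of experiment 1 was -1.75, with the nearest at -1.24. In the NaB array of experiment 1, PTGES2 was at 0.32 (nearest 1.14) and PTGER4 at -0.76 (nearest -0.32). SLCO2A1 in the DoxyNaB array of experiment 5 was at -6.70 (nearest -5.38), not well above background. Experiment 1 was on slides and scans of its own. Its arrays without butyrate shared 1 slide and scan and those with butyrate another, so its butyrate differences are also differences between slides. Without experiment 1 all 6 members called in NaB/Ctl were still called.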

How the results depend on the processing

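Of 746 values of the tested members under the alternatives, each by the probe that stands for the gene, 735 lay on the same side of the threshold in the same comparison as reported, 11 lost their call and 0 reversed as calls; 38 values that were not called changed sign. The 11 were 9 in NaB/Ctl and 2 in DoxyNaB/Doxy, given above by gene. The count of 735 includes 152 values each in Doxy/Ctl and DoxyNaB/NaB and 138 in the interaction, where no member was called under any setting. Settings that only loosened a threshold could not end a call. The count of 735 is therefore no measure of how firm the butyrate calls are. With normexp 2 members, PLA2G4A and PTGER4, were called in NaB/Ctl in place of 6; the cause was not tested. The other counts of called members stayed within 1.5 times the reported ones. They were 4 to 6 in NaB/Ctl, 4 to 7 in DoxyNaB/Doxy, and 0 in Doxy/Ctl, DoxyNaB/NaB and the interaction. The number of members tested differed: with the filter required on all 24 arrays, 4 of 5 were called in each butyrate comparison. Without the filter 7 of 9 were called in DoxyNaB/Doxy. With quantile normalization 4 of 7 were called in NaB/Ctl. Leaving out each experiment gave 6 called members each time in NaB/Ctl (6 to 6) and in DoxyNaB/Doxy (6 to 6), and 0 to 0 in the other 3. Without the pairing (no replicate block), 6, 6, 0, 0 and 0 members were called in the 5 comparisons, so the block changed no call of a member.

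Counts over all genes moved more. In NaB/Ctl 4913 genes were called, 2561 with normexp and 7963 at a fold over 1.5; in DoxyNaB/Doxy 4719, 3082 and 7757. In Doxy/Ctl 14 were called, 9 with normexp, 4 with scaling to the median, 9 without the replicate block, 2 and 0 in experiments 2 to 4 and 5 and 6, 2 by the methods' t-test after adjustment and 48 at a fold over 1.5. In DoxyNaB/NaB 60 were called and 31, 36, 31, 2, 13 and 179 under the same settings (the block aside). In the interaction 205 were called, 37 with normexp, 8 with scaling to the median, 126 without the filter, 71 without the block, 5 and 0 in the subsets of experiments, 712 and 0 by the methods' t-test before and after adjustment, 363 at an adjusted p under 0.05, and 100 to 133 without experiment 1, 3, 4, 5 or 6. Dim probes, PTGS2 and PTGER2 among the members, limit what these arrays show.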
